A study of Homo sapiens with 6 samples.

Results

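RGS2, RGS3, RGS4, RGS5, RGS7, RGS10, RGS16, RGS17, RGS19 and RGS20 are 10 genes of the regulator of G-protein signalling family, out of 25368 genes measured in MRC5 fibroblasts. They were taken from both expression tables by gene symbol, and all 10 were found in each. The family was chosen by the rise of RGS5 with the JNK inhibitor, so the RGS5 values of that comparison are given as a description only. The tables hold 11 further RGS genes, which are described beside the members.

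MRC5 is a line of human embryonic lung fibroblasts, immortalised here with a lentivirus carrying hTERT, and every library came from this line. In the JUN overexpression table, the cells were infected for 2 h with adenovirus and then cultured for 3 days. The virus carried an empty vector (control), FLAG-tagged wild-type JUN (JUN WT) or JUN AA, in which both serines phosphorylated by the kinase JNK are replaced by alanine. In the JNK inhibitor table, MRC5 cells in ordinary medium were set beside induced cancer-associated fibroblasts (iCAFs), which had spent 7 days in conditioned medium (CM) of MDA-MB-231, a human breast cancer line. The iCAFs had received vehicle (DMSO) for 48 h or 1 µM of the covalent JNK inhibitor JNK-IN-8 for 48 h (iCAFs+JNKi). By the methods of the study, MRC5 cells were kept in medium with serum and CM was collected in medium without it. The iCAFs also had 48 h of vehicle, beside 0 h for MRC5. CM and serum therefore cannot be told apart in any comparison with MRC5, nor can vehicle in iCAFs against MRC5. The iCAFs+JNKi differ from MRC5 in the inhibitor as well. There is 1 library for each of the 6 conditions. Differences therefore lack a replicate check, and neither errors nor p-values are given.

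Heterotrimeric G proteins switch on when a receptor loads their alpha subunit with GTP and switch off when that GTP is hydrolysed. RGS proteins bind the active alpha subunit through the RGS domain and speed up the hydrolysis, which shortens signalling from receptors for hormones, lipids, peptides and thrombin. The R4 subfamily (here RGS2, RGS3, RGS4, RGS5 and RGS16) acts on alpha subunits of the Gi and Gq classes, the RZ subfamily (RGS17, RGS19 and RGS20) on Gi and Gz, RGS10 of the R12 subfamily on Gi, and RGS7 of the R7 subfamily works in a complex with the beta subunit GNB5, mostly in neurons. RGS5 is best known from pericytes and vascular smooth muscle, and RGS4 and RGS7 from the brain.

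Levels are FPKM, fragments per gene divided by exon length and by the total mapped in that library, so genes can be compared within a library. Differences are on the log2(FPKM + 1) scale, which understates the change of low genes, and fold values are plain ratios of FPKM. A gene counted as at least 2-fold higher or lower at a difference of 1 on that log2 scale, if its FPKM averaged 1 or more over the 3 libraries of a table. A gene with a plain ratio above 2 can therefore fall short of this count. The labels were checked on JUN, which stood at 25.5 FPKM in control cells, 4543 with JUN WT and 291 with JUN AA. JUN RNA was thus far less abundant with JUN AA than with JUN WT, so the 2 forms were not compared at matched levels. JUN was 57.1 FPKM in MRC5, 55.3 in iCAFs and 21.1 with JNKi. All 12 fibroblast markers of a fixed list reached 1 FPKM in all 6 libraries, and none of 8 endothelial and leukocyte markers did in any. Of 6 epithelial markers, 2 to 3 reached 1 FPKM, with KRT8 at 5.80 to 19.3 FPKM and KRT18 at 9.87 to 36.7, while EPCAM stayed at or below 0.243 and CDH1 was listed at 0 throughout. Against the control, JUN WT was lower by 2-fold or more in KRT8 and KRT18 and JUN AA in KRT18, where 3.39% and 3.77% of all genes were lower. The part of these keratins in the RGS values was not tested. The FPKM of all genes summed to between 359944 and 613184 in a library, and the read depth is unknown.

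RGS3 and RGS10 dominated the family in 5 of the 6 libraries, and RGS5 came first in iCAFs+JNKi. In the control, RGS3 made up 44.2% of the summed FPKM of the 10 members, RGS10 25.7% and RGS19 14.8%. In MRC5 of the JNK inhibitor table, RGS10 led with 32.3%, followed by RGS3 with 23.3% and RGS4 with 14.6%. RGS5 held 8.21% of the members' sum in MRC5 and 6.40% in iCAFs, but 43.0% with JNKi. The sum itself was 101 FPKM in control cells, 132 with JUN WT and 129 with JUN AA, and 127 in MRC5, 90.8 in iCAFs and 160.0 with JNKi. RGS5, by whose rise the family was chosen, is part of it, at 10.5, 5.81 and 68.9 FPKM in the last 3 libraries. The higher sum with JNKi therefore does not describe the other members. These 10 genes carried 93.0% to 98.3% of the FPKM of all RGS genes in each library. A lower level in such bulk RNA can come from fewer cells that express a gene or from less RNA per cell, and these cannot be told apart.

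**Figure D1:**
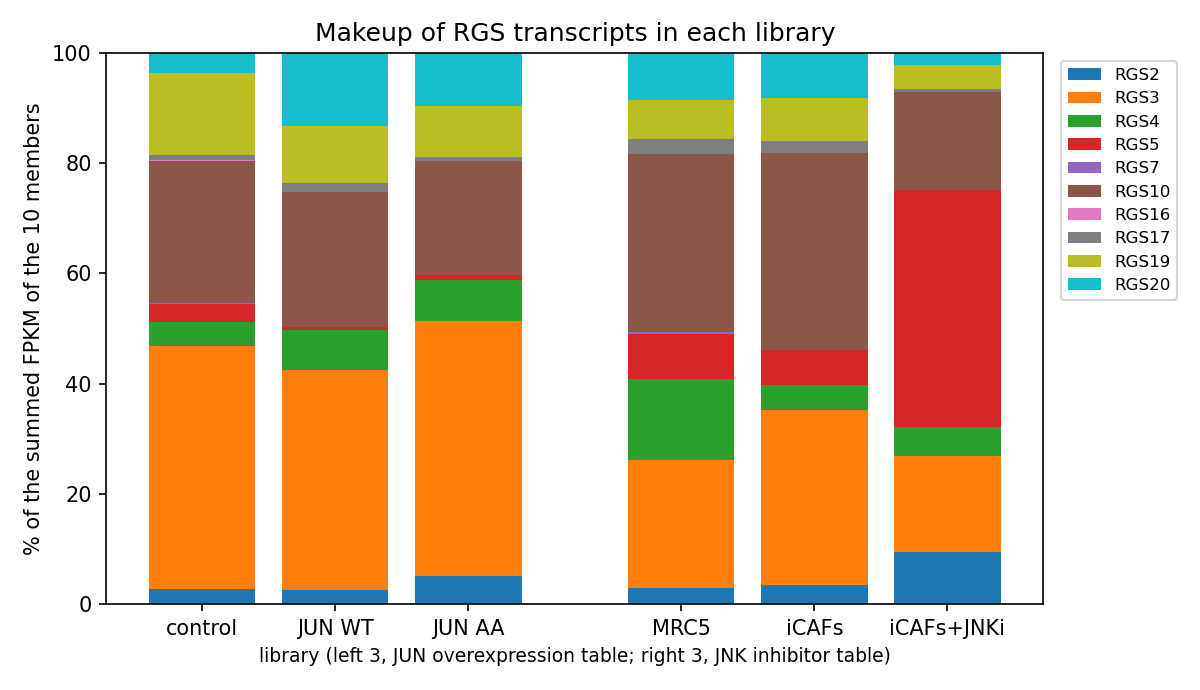
Share of each RGS gene in the summed FPKM of the 10 members (vertical axis, %), with 1 bar per library and 1 colour per gene. RGS3 and RGS10 fill most of each bar except the last, in which RGS5 takes 43.0%.

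RGS5, an R4 regulator, showed the widest range of the family. It was listed at 10.5 FPKM in MRC5, 5.81 in iCAFs and 68.9 with JNKi. The inhibitor library thus stood 11.9-fold above iCAFs and 6.59-fold above MRC5, and RGS5 moved from the 70.1th percentile of all genes in iCAFs to the 96.6th. With a log2 difference of 3.36 it ranked 3rd highest of 11780 genes in the comparison by which it was chosen. In the JUN overexpression table RGS5 was low, at 3.27 FPKM in control cells, 0.735 with JUN WT and 1.07 with JUN AA. The control was 4.44-fold above JUN WT and 3.07-fold above JUN AA, with log2 differences of -1.30 and -1.05, while JUN WT and JUN AA differed by -0.25. The table mean of RGS5 reached 1 FPKM there through the control, the highest of the 3 libraries.

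RGS2, an R4 regulator with a preference for Gq, was listed at 3.63 FPKM in MRC5, 3.16 in iCAFs and 15.0 with JNKi. Its level with the inhibitor was 4.75-fold that of iCAFs, a log2 difference of 1.94 that ranked 52nd highest of 11780 genes, and MRC5 and iCAFs differed by only -0.15. In the JUN overexpression table RGS2 was 2.73 FPKM in control cells, 3.28 with JUN WT and 6.66 with JUN AA. Only the JUN AA library stood apart, at 2.43-fold the control (log2 difference 1.04). RGS2 and RGS5 thus shared the direction with the inhibitor and lay on opposite sides of the control in JUN AA.

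The promoters of RGS5 and RGS2 are shown because these were the only members that reached a log2 difference of 1 with the inhibitor. Each run is the 250 bases upstream of the canonical transcription start, taken from RefSeq (GRCh38) and matched exactly and once to GRCh37 (hg19), the build of the files, and written 5′ to 3′ on the strand of the gene. Both windows hold no exon base of any annotated transcript of their own gene, and exons of other genes were not checked. The RGS5 window lies at chr1:163172707-163172956 on the minus strand and the RGS2 window at chr1:192777919-192778168 on the plus strand. Capitals mark the one motif found, a CRE half-site (CGTCA) 177 to 181 bases upstream of the RGS2 start.
RGS5: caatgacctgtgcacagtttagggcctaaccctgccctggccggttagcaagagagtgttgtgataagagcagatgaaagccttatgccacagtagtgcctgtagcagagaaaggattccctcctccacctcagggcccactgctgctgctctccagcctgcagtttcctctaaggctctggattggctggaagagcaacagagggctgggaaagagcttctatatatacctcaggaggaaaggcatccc
RGS2: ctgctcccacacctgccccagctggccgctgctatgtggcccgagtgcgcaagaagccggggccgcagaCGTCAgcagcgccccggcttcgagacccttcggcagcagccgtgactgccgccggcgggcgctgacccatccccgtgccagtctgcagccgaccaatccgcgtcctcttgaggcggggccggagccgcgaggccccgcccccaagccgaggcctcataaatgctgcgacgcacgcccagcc
The AP-1 motif of JUN dimers was searched in a loose form, TGANTCA, with any base at N. It and the CRE (TGACGTCA) were searched on both strands, as were CGTCA and the CArG box, and TATAAA on the strand of the gene. Every CRE also holds CGTCA. Neither window has the AP-1 motif, the CRE, TATAAA or a CArG box, and GC content was 53.6% for RGS5 and 72.8% for RGS2. Sequence outside the promoter windows, such as distal enhancers, was not searched. Of 34943 RefSeq promoter windows of the same length, 6.59% hold TGANTCA, 1.63% TGACGTCA, 21.2% CGTCA, 6.82% TATAAA and 1.16% a CArG box. Promoters were given for 9 of the 10 members in 22 windows, and TGANTCA was found in 1 of them, at an RGS7 start, with the letters TGAATCA. RGS5 has a further start 118819 bases upstream, and a value per gene cannot tell these starts apart.

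RGS4 followed another order. This R4 regulator was listed at 18.6 FPKM in MRC5, 4.03 in iCAFs and 8.38 with JNKi. MRC5 was 4.62-fold above iCAFs, and the log2 difference of -1.96 ranked 20th lowest of 11780 genes. The inhibitor library lay between the other two, 2.08-fold above iCAFs, with log2 differences of 0.90 against iCAFs and -1.06 against MRC5. In the JUN overexpression table RGS4 was 4.36 FPKM in control cells, 9.61 with JUN WT and 9.57 with JUN AA. Both JUN libraries were about equal to each other and 2.20-fold and 2.19-fold above the control, just short of the threshold at log2 differences of 0.98 and 0.98. RGS4 was thus higher with JUN and lower in iCAFs, where RGS5 was lower in both.

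RGS3 and RGS16 are the remaining R4 members. RGS3, a ubiquitous regulator with several long isoforms, was listed at 44.6 FPKM in control cells, 52.8 with JUN WT and 59.4 with JUN AA, and at 29.7 in MRC5, 28.9 in iCAFs and 28.0 with JNKi. Its log2 differences ran from -0.17 to 0.41 over all comparisons, and the 3 libraries of the JNK inhibitor table were nearly level. RGS16 was at 0.302 FPKM in the control, 0.0434 in iCAFs and listed at 0 in the other 4 libraries. With a mean below 1 FPKM in both tables it did not pass the filter, and no fold is given.

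Among the RZ members, which carry a cysteine string near the amino terminus, RGS20 showed the largest differences. It was listed at 3.64 FPKM in control cells, 17.5 with JUN WT and 12.5 with JUN AA, so that both JUN libraries were well above the control, by 4.80-fold and 3.43-fold. The log2 differences were 1.99 and 1.54, ranking 52nd and 124th highest of 10311 genes, and 0.46 between JUN WT and JUN AA. In the JNK inhibitor table RGS20 was 10.8 FPKM in MRC5, 7.48 in iCAFs and 3.52 with JNKi. The level in MRC5 was 3.08-fold that with the inhibitor (log2 difference -1.39), and iCAFs lay between them, 2.13-fold above the inhibitor library (log2 difference -0.91).

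RGS17, a regulator of Gi and Gz, was listed at 0.938 FPKM in control cells, 2.05 with JUN WT and 0.866 with JUN AA. JUN WT alone was raised, 2.19-fold above the control and 2.37-fold above JUN AA, but at these low levels the log2 differences were 0.66 and 0.71. It was 3.57 FPKM in MRC5, 2.01 in iCAFs and 1.09 with JNKi, so MRC5 stood 3.27-fold above the inhibitor library (log2 difference -1.13). RGS19, also known as GAIP, was listed at 15.0 FPKM in control cells, 13.7 with JUN WT and 11.8 with JUN AA, and at 8.96 in MRC5, 6.98 in iCAFs and 6.86 with JNKi. Its log2 differences lay between -0.34 and 0.21. All 3 RZ members were listed in the order MRC5, iCAFs, iCAFs+JNKi from high to low, although the last 2 were nearly equal for RGS19 and changed order when FPKM were rescaled to an equal sum. RGS3, RGS10 and RGS12, outside the RZ subfamily, were listed in this order too, as was the summed FPKM of all genes. The share of all genes with this order was not counted.

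RGS10, the R12 member, was listed at 25.9 FPKM in control cells, 32.6 with JUN WT and 26.6 with JUN AA, and at 41.2 in MRC5, 32.4 in iCAFs and 28.3 with JNKi. It came highest in JUN WT and in MRC5, with log2 differences between -0.53 and 0.32. RGS7, the R7 member, was at 0.127 FPKM in control cells, 0.0168 with JUN WT and 0.150 with JUN AA, and at 0.424 in MRC5 and listed at 0 in both iCAF libraries. It did not pass the filter in either table, and its partner GNB5 was measured at 1.68 to 9.84 FPKM.

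**Figure D2:**
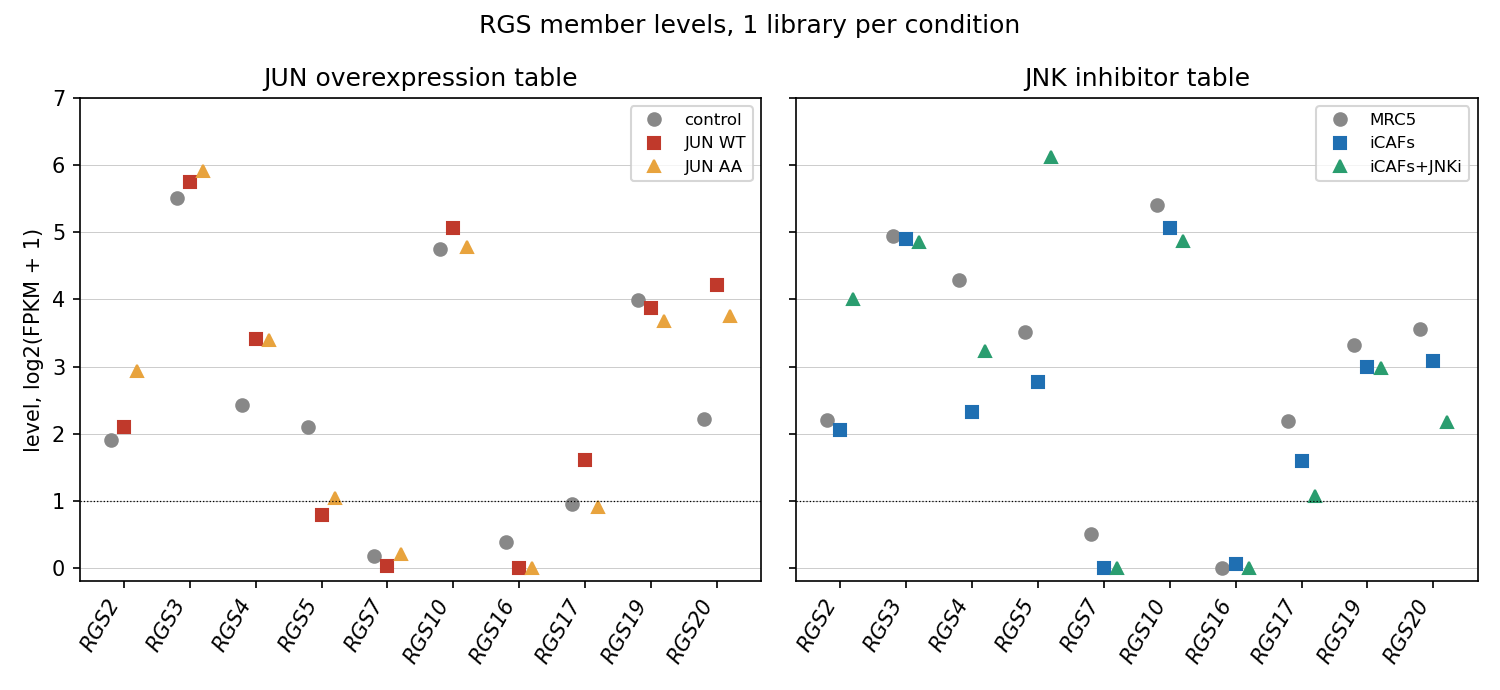
Level of each RGS gene in log2(FPKM + 1), with 1 point per library, for the JUN overexpression table (left) and the JNK inhibitor table (right). The dotted line is 1 FPKM. RGS5 and RGS2 are highest in iCAFs+JNKi, RGS4 and RGS20 are lower there than in MRC5, and RGS7 and RGS16 lie under the line throughout.

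Of the 10 members, 8 passed the filter in both tables. In the JUN overexpression table RGS17 passed only through JUN WT, as RGS5 did through the control. In JUN WT against control, 1 member was at least 2-fold higher (RGS20) and 1 lower (RGS5), where 6.92% of 10311 genes were higher and 3.39% lower. In JUN AA against the same control library, 2 were higher (RGS2 and RGS20), against 5.29% of genes, and 1 was lower (RGS5), against 3.77%. Between JUN WT and JUN AA no member reached a log2 difference of 1 in size, where 6.65% of genes were higher in JUN WT and 5.61% lower. The median log2 difference of the 8 against control was 0.28 with JUN WT and 0.22 with JUN AA, beside 0.15 and -0.015 over all genes that passed.

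In iCAFs against MRC5, 0 members were at least 2-fold higher, against 1.94% of 11780 genes, and 1 was lower (RGS4), against 1.71%. All 8 members were listed lower in iCAFs, with a median of -0.41 beside -0.061 over all genes, and RGS3 among them by only -0.040. The median gene was thus itself lower, with quartiles of -0.24 and 0.11. The share of all genes listed lower was not counted. With every difference centred on the median gene, RGS3 came out at 0.021, on the other side of 0. In iCAFs+JNKi against iCAFs, the comparison used for the choice, 2 members were higher (RGS2 and RGS5) and 0 lower, where 2.25% of genes were higher and 1.97% lower. The median of the 8 was -0.032 beside -0.099 over all genes, so the other 6 members did not share the direction as a group: RGS4 was higher and 5 were listed lower. RGS3 and RGS19 came out on the higher side with FPKM rescaled to an equal sum or with differences centred. In iCAFs+JNKi against MRC5, 2 members were higher (RGS2 and RGS5), against 3.28% of genes, and 3 were lower (RGS4, RGS17 and RGS20), against 3.53%. The comparisons of a table share libraries and are not independent of each other.

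**Figure D3:**
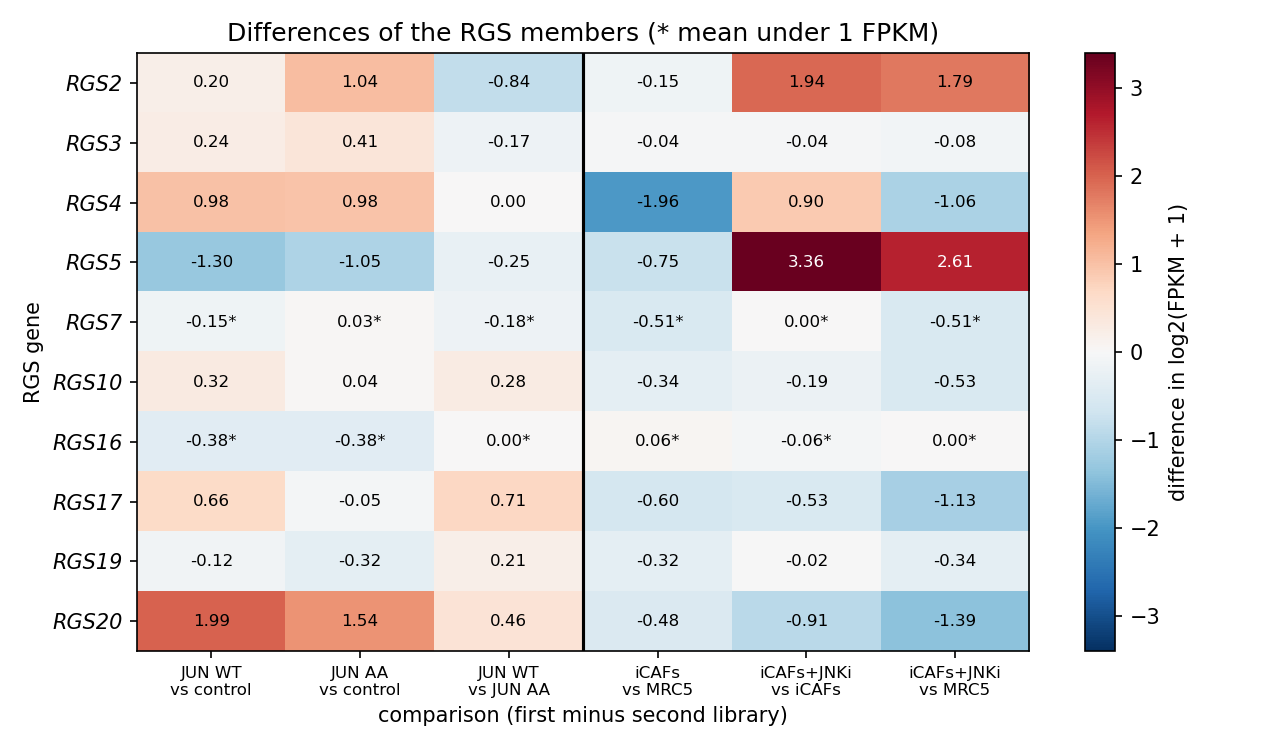
Difference in log2(FPKM + 1) of each RGS gene (rows) in each comparison (columns), coloured from lower (blue) to higher (red) in the first-named library, with an asterisk where the table mean is under 1 FPKM. RGS5 with JNKi reaches 3.36 and RGS4 in iCAFs -1.96, while RGS3 and RGS19 stay pale in every column.

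Of the 11 further RGS genes, 3 reached 1 FPKM in any library. RGS9, an R7 regulator of photoreceptors and striatum, was at 0.654 to 1.06 FPKM in the JUN overexpression table, and at 0.873 in MRC5, 1.28 in iCAFs and 5.26 with JNKi. RGS18, an R4 regulator of platelets, was listed at 0 in all 3 libraries of the JUN overexpression table, and at 0.341 in MRC5, 0.315 in iCAFs and 3.55 with JNKi. Both were thus highest with the inhibitor, at log2 differences against iCAFs of 1.46 and 1.79. RGS12, of the R12 subfamily, was 2.08 FPKM in control cells, 1.22 with JUN WT and 0.883 with JUN AA, and 2.41 to 3.21 in the JNK inhibitor table. RGS8, RGS13 and RGS21 were listed at 0 in all 6 libraries, and the other 5 stayed below 1 FPKM. RGS18 passed the filter only through the inhibitor library.

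In GRCh37, RGS5 (chr1:163080911-163291581, minus strand) and RGS4 (chr1:163038565-163046592, plus strand) are neighbours, 34318 bp apart. They lay on opposite sides of the control in both JUN libraries. RGS2 (chr1:192778169-192781405, plus strand) and RGS18 (chr1:192127592-192154945, plus strand) lie in another group of R4 genes, with RGS13 next to RGS2 at 148727 bp and listed at 0. RGS16 is at chr1:182567758-182573524 and RGS7 at chr1:240930936-241520674, both on the minus strand, so that 5 of the 10 RGS genes of chromosome 1 are members. RGS3 is at chr9:116207011-116360023 (plus strand), RGS10 at chr10:121259329-121302231, RGS17 at chr6:153325594-153452417 and RGS19 at chr20:62704534-62711341 (all minus strand). RGS5 shares 534 of its 6624 exon bases (8.06%) with a lncRNA on the same strand, and RGS7 and RGS18 share 2.48% and 5.46% with a lncRNA on the opposite strand. As the strand setting is not given in the sources used here, reads in these bases cannot be assigned with certainty.

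The genes most like RGS5 were found by Euclidean distance over 4 log2 differences (JUN WT and JUN AA against control, iCAFs against MRC5, and iCAFs+JNKi against iCAFs) among 10020 genes that passed in both tables. The 4 differences come from 6 libraries, and 2 of them share the control and 2 share iCAFs. The nearest were ACTA2 (distance 0.74), the smooth muscle actin of myofibroblasts, COL3A1 (0.81), a fibrillar collagen, CDH6 (0.93), a cadherin, PCDH18 (1.11), a protocadherin, and LMOD1 (1.44), an actin nucleator of smooth muscle. ACTA2 was 874 FPKM in control cells, 336 with JUN WT and 280 with JUN AA, and 96.6 in MRC5, 52.8 in iCAFs and 411 with JNKi. COL3A1 was 362, 189 and 163 FPKM in the JUN overexpression table and 73.6, 46.4 and 296 in the JNK inhibitor table, in the same order. The shared directions of these 5 genes and RGS5 follow from how the genes were picked, and 1 of the 4 differences is that by which RGS5 was chosen. ACTA2 shares exon bases with FAS (6.75%) and ACTA2-AS1 (29.1%) on the opposite strand and with a lncRNA on the same strand (7.13%). CDH6 and LMOD1 share some with non-coding genes.

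For RGS4 the nearest genes were CAV1 (distance 0.64), the coat protein of caveolae, STXBP6 (0.76), a SNARE-binding protein, DTNA (0.81), a dystrobrevin, CPA4 (0.87), a carboxypeptidase, and PPARG (1.04), a nuclear receptor of fat cells. CAV1 was 57.7 FPKM in control cells, 133 with JUN WT and 103 with JUN AA, and 295 in MRC5, 85.0 in iCAFs and 108 with JNKi. PPARG was 8.48, 25.1 and 12.4 FPKM in the first table and 31.4, 9.20 and 10.4 in the second, in the same order. Here too the shared directions follow from how the genes were picked. Their differences with JNKi against iCAFs were 0.16 to 0.74 on the log2 scale, beside 0.90 for RGS4. STXBP6 and DTNA share 5.43% and 0.235% of their exon bases with a lncRNA on the opposite strand.

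**Figure D4:**
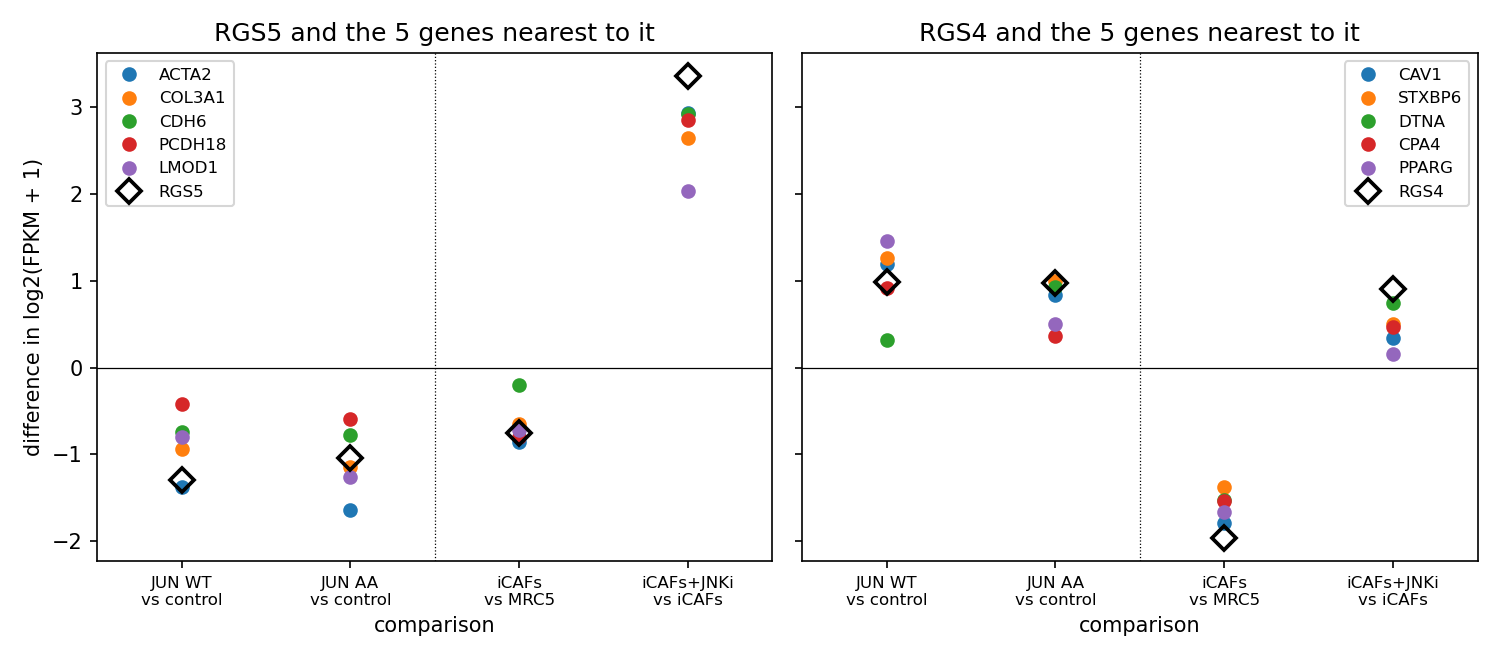
Log2 differences over 4 comparisons (horizontal axis) for RGS5 with its 5 nearest genes (left) and RGS4 with its 5 nearest genes (right), with RGS5 and RGS4 as open diamonds. The RGS5 group lies below 0 except with JNKi, where RGS5 reaches 3.36, and the RGS4 group lies below 0 only in iCAFs, where RGS4 reaches -1.96.

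RGS members act on alpha subunits of G proteins, which work with beta and gamma subunits, receptors and effectors. Of 13 genes for G-protein alpha subunits, 8 passed the filter in each table. Of these, 0 reached a log2 difference of 1 in size in any comparison, against 1.71% to 6.92% of all genes in each direction. With so few genes a count of 0 is near that share, here and in the lists that follow. GNAI2, a Gi subunit, was 366 FPKM in control cells, 304 with JUN WT and 336 with JUN AA, and 306 in MRC5, 265 in iCAFs and 213 with JNKi. GNAQ, the Gq subunit, was 10.5 FPKM in MRC5, 10.7 in iCAFs and 11.7 with JNKi. GNAZ, the Gz subunit, stayed at or below 0.681 FPKM. Of 11 beta and gamma genes, 8 passed in the JUN overexpression table, where GNG10 was higher in JUN AA than in the control (50.1 and 21.8 FPKM) and GNB1 higher in JUN WT than in JUN AA (100.3 and 48.5 FPKM). Of the 11, 9 passed with the JNK inhibitor libraries and 0 reached a log2 difference of 1 in size. Further lists were receptor kinases and arrestins (7 genes), phospholipase C beta (4), adenylyl cyclases (10), RGS partners and adaptors (6) and other proteins with an RGS box (8). Among their genes that passed, 0 reached a log2 difference of 1 in size in any comparison.

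Receptors for peptides, lipids, amines and proteases send the signals that RGS proteins shorten. Of a list of 42, 24 passed in the JUN overexpression table. In JUN WT, 4 of the 24 were at least 2-fold higher than in the control, against 6.92% of all genes: the prostacyclin receptor PTGIR (to 6.58 FPKM, log2 difference 1.29), the angiotensin receptor AGTR1 (1.24 to 3.79 FPKM), the thromboxane receptor TBXA2R (0.917 to 2.97) and the oxytocin receptor OXTR (1.03 to 3.20). The adrenergic receptor ADRA1B (2.84 to 0.252 FPKM) and the muscarinic receptor CHRM2 (7.51 to 2.21) were lower, against 3.39%. In JUN AA, 0 receptors were higher and 2 were lower than in the control, against 5.29% and 3.77% of all genes, ADRA1B at 0.753 FPKM and the bradykinin receptor BDKRB1 at 13.7 beside 29.7. Directly compared, JUN WT was above JUN AA in 3 receptors (BDKRB1, PTGIR and OXTR, log2 differences 1.89, 1.69 and 1.58) and below it in LPAR6, a receptor for lysophosphatidic acid (-1.42), against 6.65% and 5.61%. ADRA1B passed the filter only through the control, OXTR only through JUN WT and LPAR6 only through JUN AA, the library where each was highest.

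Among the JNK inhibitor libraries, 27 of the 42 receptors passed. In iCAFs 3 were higher than in MRC5, the endothelin receptor EDNRB (0.0702 to 2.56 FPKM) and the bradykinin receptors BDKRB2 (21.4 to 58.1) and BDKRB1 (50.4 to 122), and 2 were lower, OXTR (14.9 to 1.82) and the protease-activated receptor F2RL2 (21.2 to 8.45), against 1.94% and 1.71% of all genes. With JNKi, EDNRB (2.56 to 10.4 FPKM) and CHRM2 (15.2 to 44.8) were higher than in iCAFs, and 0 receptors were lower, against 2.25% and 1.97%. Against MRC5, the inhibitor library was higher in EDNRB and CHRM2 and lower in OXTR and F2RL2, against 3.28% and 3.53%. Each of these counts is of 0 to 4 receptors, and no test of the list was made.

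Because RGS5 is also a marker of pericytes, 12 pericyte and smooth muscle markers were read in the same libraries. Of these, 8 reached 1 FPKM in MRC5, 8 in iCAFs and 7 with JNKi, and their sum was 1594, 1510 and 2260 FPKM. HIGD1B was listed at 0 in all 6 libraries, and in those 6 DES did not exceed 0.603 FPKM, ABCC9 0.659 and MYH11 0.295. KCNJ8 was 1.62 FPKM in MRC5, 1.10 in iCAFs and 0.691 with JNKi. NOTCH3 was 24.9, 33.6 and 53.5 FPKM in the same order, MCAM 46.4, 70.2 and 69.8, and CSPG4 32.5, 23.2 and 22.0. Of the 8 that passed the filter, ACTA2 and ANGPT1 were at least 2-fold higher with JNKi than in iCAFs and 0 were lower, against 2.25% and 1.97% of all genes. With NOTCH3 they were also higher than in MRC5 and again 0 were lower, against 3.28% and 3.53%. ANGPT1 was 37.1 FPKM with JNKi beside 12.6 in iCAFs, and PDGFRB, counted among the fibroblast markers, was 74.8 beside 23.1. The summed fibroblast markers were 7709 FPKM in MRC5, 7989 in iCAFs and 12078 with JNKi. Of these 12, 6 were at least 2-fold higher and 0 lower with JNKi than in iCAFs, against 2.25% and 1.97% of all genes. Beside MRC5, 5 were higher and 1 lower with JNKi, against 3.28% and 3.53%. The lower one was VIM, at 2892 FPKM in MRC5, 1655 in iCAFs and 1209 with JNKi. In the JUN overexpression table the pericyte and smooth muscle sum was 4727 FPKM in control cells, 3380 with JUN WT and 3637 with JUN AA. TAGLN made up most of the sum in all 6 libraries, at 3573, 2858 and 3196 FPKM here. NOTCH3 and ACTA2 were at least 2-fold lower and 0 markers higher in both JUN libraries, where 3.39% and 3.77% of all genes were lower. CSPG4 was above the control with JUN WT (24.6 beside 15.2 FPKM) and ANGPT1 with JUN AA (6.88 beside 4.10). Both fell short of the threshold and were below the control in the other JUN library. Of the 12 fibroblast markers, 4 were at least 2-fold lower than the control and 0 higher with JUN WT, against 3.39% and 6.92% of all genes. With JUN AA, 4 were lower and 1 (LUM) was higher, against 3.77% and 5.29%. The part of these markers in the RGS5 values was not tested.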

How the data were processed

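RNA-seq of 6 libraries of MRC5 cells, 1 per condition, was used. Reads were mapped by the authors to the human build hg19 with HISAT2 (version 2.1.0 in the submitters' processing notes) and the deposited FPKM per gene come from StringTie (2.1.1). FPKM divide the fragments of a gene by its exon length and by all mapped fragments. The annotation, strand setting and read numbers are not given in the sources used here. The low FPKM values of a table shared no common step from which depth could be read, so the depth behind each value is unknown and its precision is not given.

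Each column was assigned to its library from the column name. The 2 tables were normalised separately and were compared only within themselves. From the deposited FPKM, differences in log2(FPKM + 1) were computed with Python 3.11.15, numpy 2.4.6 and pandas 2.3.3, without any test, since each condition has 1 library and FPKM are not counts. The filter was a mean of at least 1 FPKM over the 3 libraries of a table, and a call was a difference of at least 1 in size. The computation was checked on a copy of the iCAFs library, in which known changes above the threshold were put into well-expressed genes without noise. This check does not address low levels or error between libraries.

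The members, gene lists and rules were chosen with earlier results of these data known. Named are all members, other RGS genes at 1 FPKM or more in any library, up to 4 genes per list and comparison with a 2-fold difference, and the 5 genes nearest to RGS5 and to RGS4 by Euclidean distance. Levels of genes without a 2-fold difference, such as GNAI2, GNAQ, GNAZ, GNB5 and single cell type markers, lie outside this rule and were chosen after their values were seen. Positions and exon overlaps are from GENCODE v44lift37 on GRCh37, and promoters from RefSeq. Alternatives were a pseudocount of 0.1 FPKM, no filter, a filter of 5 FPKM, FPKM rescaled to a sum of 1000000 and differences centred on the median gene. Figures were drawn with matplotlib 3.10.9.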

Additional observations from a re-analysis of the deposited data

How the results depend on the processing

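The number of members at least 2-fold apart depended on low levels and on scaling. With a pseudocount of 0.1 FPKM it went from 2 to 4 in JUN WT against control (RGS4 and RGS17 added), from 0 to 1 in JUN WT against JUN AA (RGS17) and from 2 to 4 in iCAFs+JNKi against iCAFs (RGS4 higher and RGS20 lower added). With a filter of 5 FPKM it was 1 (RGS20) in JUN WT against control and, from 3, 1 (RGS20) in JUN AA against control, since fewer genes passed. With FPKM rescaled to an equal sum, JUN WT against JUN AA held 1 (RGS17), RGS2 in JUN AA against control fell below the threshold at 0.86, RGS4 was added in JUN WT against control (2 to 3 members) and in iCAFs+JNKi against iCAFs (2 to 3), and RGS4 was lost in iCAFs+JNKi against MRC5 (5 to 4). With differences centred on the median gene, JUN WT against JUN AA held 1 (RGS2 lower, -1.02) and iCAFs+JNKi against MRC5 held 3 in place of 5 (RGS2, RGS5 and RGS20). RGS4 remained the 1 member called in iCAFs against MRC5 under every alternative, and no called difference changed sign under any of them. RGS5 in iCAFs+JNKi against iCAFs ranged from 3.36 to 3.61. In JUN WT against control RGS5 ranged from -2.01 to -1.30, and in JUN AA from -1.53 to -1.03. Of the 60 differences of the members, 15 moved by more than 0.25 with the pseudocount of 0.1, 17 with rescaling and 0 with centring.

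Scaling also set the balance of calls over all genes. Rescaling moved the share of calls that were higher from 58.4% to 26.1% in JUN AA against control, from 54.3% to 82.9% in JUN WT against JUN AA and from 48.1% to 59.3% in iCAFs+JNKi against MRC5. Centring moved it from 67.1% to 45.5% in JUN WT against control, to 33.3% in JUN WT against JUN AA, from 53.3% to 64.0% in iCAFs+JNKi against iCAFs and to 65.9% in iCAFs+JNKi against MRC5. The cause was not tested. Leaving out a replicate was not possible with 1 library per condition. No paired analysis was possible because the result comes from no test.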
